A study of Mus musculus with 8 samples.

Results

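The enzymes described here open the breakdown of the branched-chain amino acids and of proline, pass amino groups to alanine and aspartate, and make glutamine. They are encoded by 10 genes: Bcat2, Bckdha, Bckdhb, Dbt, Glul, Gpt2, Got1, Got2, Aldh4a1 and Prodh. Every probe set of the array table that the platform annotation assigned to 1 of these genes and to no other was taken, which gave 17 of the 45101 probe sets. Of the 10 genes, 7 had a single probe set, Glul had 2, and Gpt2 and Got2 had 4 each. The genes were grouped by their place in metabolism, and the group was chosen with earlier results of these data known. Expression was measured in gastrocnemius, the large calf muscle of the mouse, with 1 Affymetrix array for each of 8 RNA samples. The 4 control samples were wild type and the 4 GR_KO samples carried a knockout of the glucocorticoid receptor, which the series describes as GR(i)skm-/-. All were on the strain background C57/Bl6J. No source used here states age, sex, any agent given, or the promoter behind the knockout. The labels leave unsaid whether each array stands for its own mouse, so the p-values below cover the spread among these arrays and that spread may be technical.

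Muscle is a main site of branched-chain amino acid breakdown. Leucine, isoleucine and valine lose their amino group in the mitochondrion, and the remaining keto acids are then decarboxylated irreversibly by a large complex. The amino groups end on glutamate, and from there on alanine, aspartate or glutamine, which leave the muscle or feed the malate-aspartate shuttle. Glucocorticoids act through their receptor, a transcription factor encoded by Nr3c1, and are known to promote protein breakdown and the release of alanine and glutamine from muscle. The transcription factor Klf15 is induced by glucocorticoids and is known to raise several of these enzymes in muscle.

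The values are MAS5 signals, the linear brightness that the Affymetrix software computes for a probe set, and signals of different probe sets are not compared with each other as levels. A gene was represented in the gene test by its brightest probe set, and it was tested when that probe set was brighter on average than the median probe set, at a signal of 19.4. All 10 genes passed this filter, as did 16 of the 17 probe sets. The trimmed mean signal was 99.96 on every array. Control replicate 4 stood apart, with a geometric mean of 3918 over 16 spike-in probe sets against 1077 to 1756 on the other 7 arrays. It had the lowest signal of the control group for 7 of the 10 genes and the highest for the other 3. The knocked-out gene was read first, and Nr3c1 probe set 1460303_at had control signals of 377, 307, 307 and 352 and GR_KO signals of 134, 79, 76 and 94 (log2 fold change -1.84, adjusted p = 0.0240 in limma). The log2 fold change stayed between -2.02 and -1.74 under 19 alternatives, and the call ended under 8 of them: with no filter, without a trend, with the replicate block, and when control 1, control 3, GR_KO 2, GR_KO 3 or GR_KO 4 was left out. Its brightest probe set, 1421867_at, read 289, 213, 287 and 513 against 222, 169, 120 and 105, which overlap (adjusted p = 0.777). The defining transcripts of skeletal muscle were bright on all arrays, at 9925 to 28292 for the actin gene Acta1, and 6 of 7 measured genes of liver and brain were below the filter. The exception was Aqp4, a water channel that fast muscle fibres also make.

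No gene of the group passed the test in GR_KO muscle. In limma over 11062 genes, 0 of the 10 genes had an adjusted p under 0.05, where 0.0542% of all genes tested did, all of them lower. At an unadjusted p under 0.05, 1 of the 10 genes was lower, Prodh, and 1 was higher, Aldh4a1, against 2.26% and 2.37% of all genes tested. In the fit of all 22518 probe sets above the filter, 0 of 16 passed, where 0.0222% of all did. Here 5 of the 16 were lower at an unadjusted p under 0.05 (2.07% of all were) and 1 was higher (1.68% of all were), and these belong to Gpt2, Glul, Prodh and Aldh4a1. The 4 GR_KO signals lay wholly below the 4 controls at 2 of the 16, where 1.21% of all probe sets did, and wholly above at 1, where 0.981% did. Of the genes, 7 were below 0 and 3 above in log2 fold change, with a median of -0.04, while the median of all genes tested was 0.01. The members' median was -0.13 without control replicate 4 and turned to 0.052 without GR_KO replicate 1. Probe sets of 1 gene share their target and are not independent of each other.

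**Figure D1:**
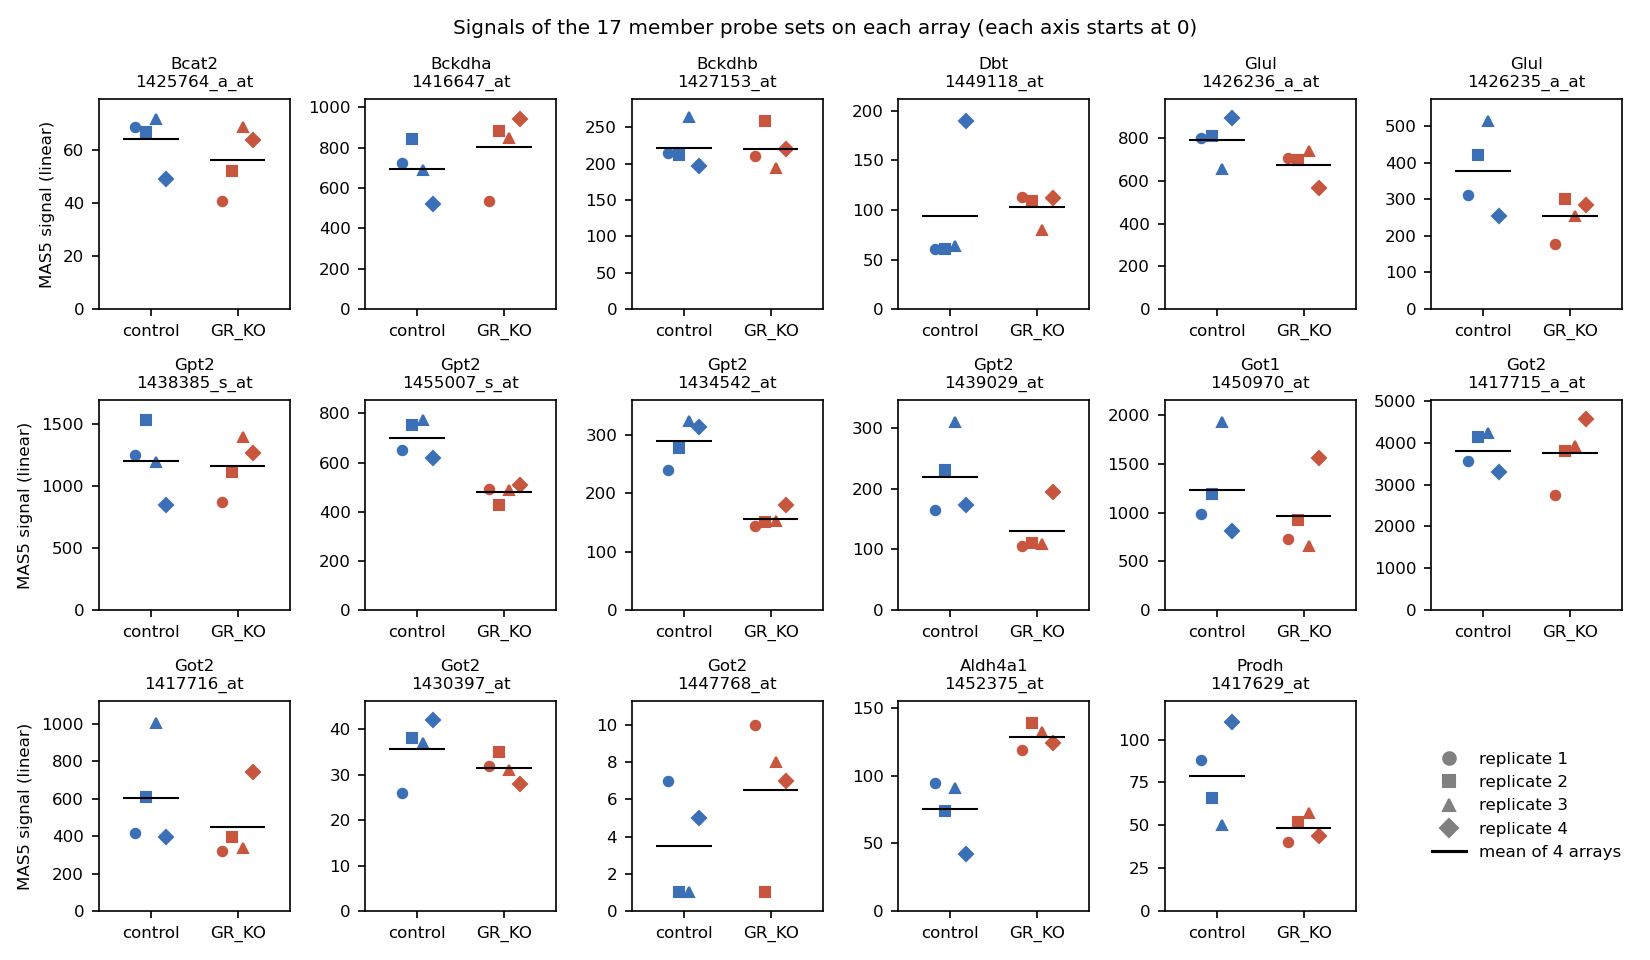
MAS5 signal (linear, each vertical axis from 0) of the 17 member probe sets on the 4 control arrays (blue) and the 4 GR_KO arrays (red), with the mean of each group as a line and 1 marker shape per replicate number. The GR_KO arrays sit below all controls at Gpt2 1455007_s_at and 1434542_at and above all controls at Aldh4a1, while the other panels overlap.

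Gpt2 encodes the mitochondrial alanine aminotransferase, which moves an amino group from glutamate to pyruvate to make alanine. Its probe set 1434542_at had signals of 239, 277, 324 and 314 in control muscle and of 144, 151, 152 and 179 in GR_KO muscle. All 4 GR_KO signals lay below the lowest control signal. The means were 288 ± 38.7 and 156 ± 15.4 (SD, n = 4 per group), a level 1.84-fold lower, and the log2 fold change was -0.88 ± 0.15 (SE, 95% interval -1.21 to -0.54). This was the smallest p of any member in limma (unadjusted p = 0.000136), and it did not pass over all probe sets (adjusted p = 0.236).

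A second Gpt2 probe set, 1455007_s_at, which the annotation ties to the same transcript accession, separated the groups in the same direction. Its signals were 649, 754, 774 and 620 in control and 492, 428, 487 and 507 in GR_KO muscle, which do not overlap. With a log2 fold change of -0.54 ± 0.13 (SE), it had an adjusted p of 0.963 in limma. At 1439029_at the signals were 165, 231, 310 and 173 against 106, 111, 108 and 194. Here GR_KO replicate 4 lay above 2 of the controls while its 3 companions lay below all of them, and the log2 fold change was -0.76 ± 0.26 (SE, adjusted p = 0.963).

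The brightest Gpt2 probe set, 1438385_s_at, did not differ beyond the spread between arrays. It read 1251, 1533, 1190 and 843 in control muscle and 868, 1115, 1394 and 1267 in GR_KO muscle, so the groups overlap over most of their range. Its log2 fold change in the gene test was -0.04 ± 0.20 (SE, 95% interval -0.49 to 0.40, adjusted p = 0.973). Because this probe set stands for the gene, Gpt2 counts among the genes without a difference, and with the mean of its 4 probe sets in its place the log2 fold change was -0.56. The ratio of 1434542_at to 1438385_s_at within an array was 0.181 to 0.372 in control and 0.109 to 0.166 in GR_KO muscle. This ratio was not tested. It sets the member probe set with the smallest p against the Gpt2 probe set with the smallest difference, so its separation is not a separate result. The ratio of 1455007_s_at to 1438385_s_at overlapped, at 0.492 to 0.735 in control and 0.349 to 0.567 in GR_KO muscle. Which part of the transcript each probe set reads was not analysed here.

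**Figure D2:**
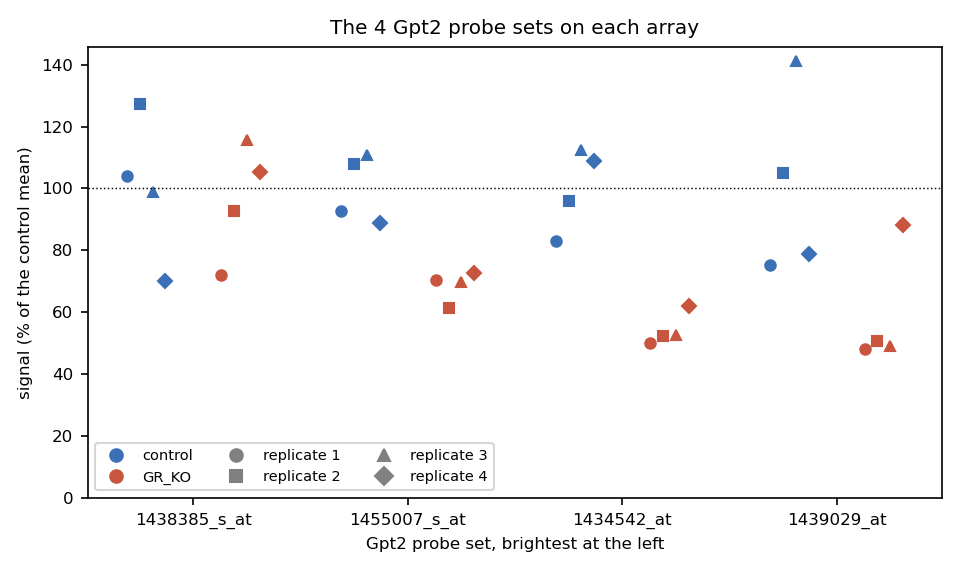
Signal of the 4 Gpt2 probe sets on each array as a percentage of that probe set's control mean, control arrays in blue and GR_KO arrays in red, with 1 marker shape per replicate number. The GR_KO arrays lie below every control at 1455007_s_at and 1434542_at, and among the controls at the brightest probe set, 1438385_s_at.

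The aspartate aminotransferases Got1, in the cytosol, and Got2, in the mitochondrion, exchange amino groups between glutamate and aspartate and carry the malate-aspartate shuttle. Neither differed between the groups beyond the spread of their signals. Got1 read 980, 1192, 1931 and 812 in control muscle and 732, 925, 657 and 1557 in GR_KO muscle. The highest array of each group was far above the others, and the groups overlap. The log2 fold change was -0.35 ± 0.30 (SE, 95% interval -1.02 to 0.32, adjusted p = 0.881 in limma), and it was -0.11 without control replicate 3 and -0.61 without GR_KO replicate 4, the 2 highest arrays.

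Got2 was bright at 1417715_a_at, with 3575, 4133, 4229 and 3291 in control and 2740, 3797, 3912 and 4562 in GR_KO muscle. The highest and the lowest of these 8 signals were both from GR_KO arrays. Its log2 fold change was -0.04 ± 0.17 (SE, 95% interval -0.41 to 0.34, adjusted p = 0.973). A dimmer Got2 probe set, 1417716_at, read 416, 608, 1005 and 397 against 319, 395, 335 and 744, with a log2 fold change of -0.42 ± 0.33 (SE, adjusted p = 0.963). Leaving out the same arrays as for Got1, control replicate 3 or GR_KO replicate 4, gave -0.14 or -0.69. Probe set 1430397_at lay between 26 and 42 on all arrays (log2 fold change -0.16 ± 0.24 SE), and 1447768_at, at signals of 1 to 10, was the only member probe set below the filter.

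The arrays with high Got1 signals were those with a high 5′ to 3′ ratio of the beta-actin control probe sets, a measure of how complete the labelled RNA is. That ratio was 1.01 on control replicate 3, 0.931 on GR_KO replicate 4 and 0.725 on control replicate 2, and these arrays also had the 3 highest signals of Got1, of Got2 1417716_at and of Gpt2 1439029_at. On the other 5 arrays it lay between 0.543 and 0.649. With the log2 of this ratio as a covariate, a fit added after these signals had been seen, the SE was 35.1% of its size without the covariate for Got1 and 36.1% for Got2 1417716_at, while the median over all probe sets was 97.5%. The log2 fold changes in that fit were -0.16 ± 0.11 for Got1 and -0.21 ± 0.12 for Got2 1417716_at (SE, adjusted p = 0.715 and 0.70). Those of Gpt2 1434542_at and 1439029_at were -0.84 ± 0.14 and -0.62 ± 0.14 (SE, adjusted p = 0.223 and 0.70).

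**Figure D3:**
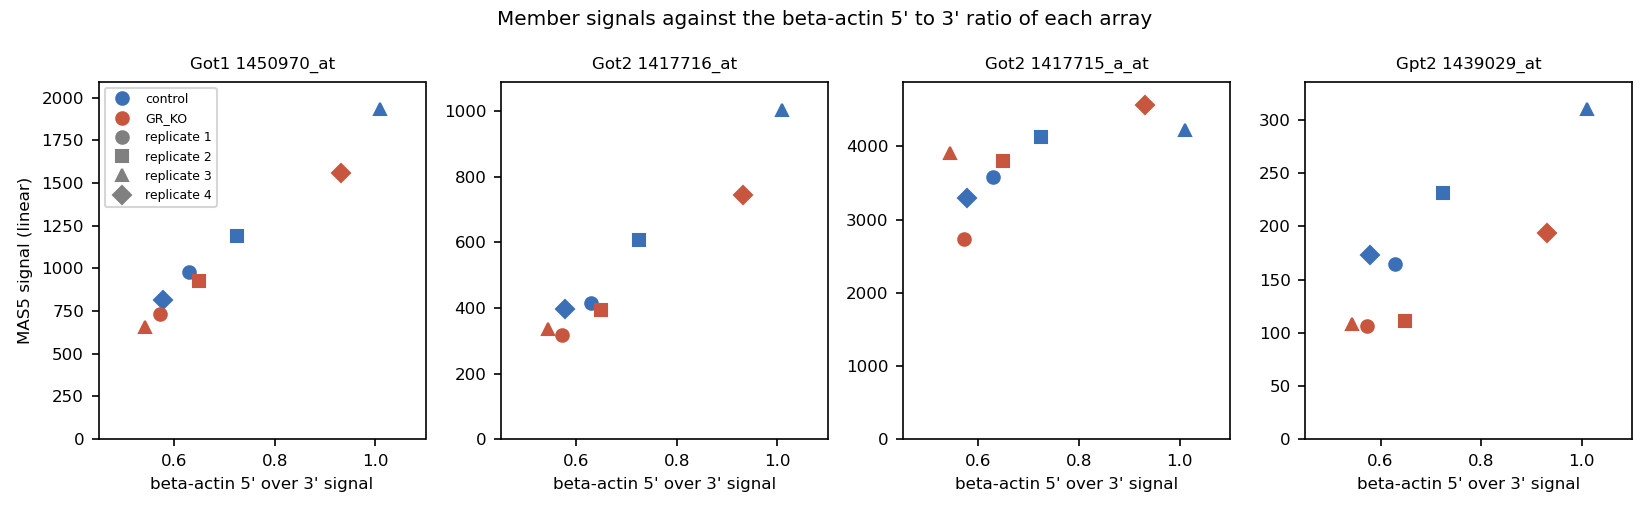
Signals of Got1, of 2 Got2 probe sets and of Gpt2 1439029_at (vertical axes, linear from 0) against the ratio of the 5′ to the 3′ beta-actin control probe set of the same array (horizontal axis), control arrays in blue and GR_KO arrays in red. Control replicate 3 and GR_KO replicate 4, with ratios of 1.01 and 0.931, lie at the right and carry the highest Got1 signals, 1931 and 1557.

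Glul encodes glutamine synthetase, which joins ammonia to glutamate and is known as a glucocorticoid-induced enzyme of muscle. Its brightest probe set, 1426236_a_at, read 800, 812, 657 and 895 in control and 706, 698, 738 and 566 in GR_KO muscle. Of the controls, 3 lay above all GR_KO arrays, and control replicate 3 lay below 3 of them. The log2 fold change was -0.22 ± 0.14 (SE, 95% interval -0.54 to 0.09, adjusted p = 0.880 in limma). It was -0.38 with the mean of the 2 Glul probe sets (adjusted p = 0.874) and -0.14 without GR_KO replicate 4. The other probe set, 1426235_a_at, read 313, 422, 515 and 254 against 179, 300, 253 and 285, with a log2 fold change of -0.54 ± 0.24 (SE, unadjusted p = 0.0458, adjusted p = 0.963). Control replicate 3 was the lowest control at the first probe set and the highest at the second, and their ratio on that array was 0.784, against 0.284 to 0.520 on the other controls and 0.254 to 0.504 on the GR_KO arrays.

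Proline is oxidised in the mitochondrion to glutamate by Prodh, proline dehydrogenase, followed by Aldh4a1, the dehydrogenase of the pyrroline-carboxylate that Prodh makes. Neither gene passed the test, with a log2 fold change above 0 for Aldh4a1 and below 0 for Prodh. Aldh4a1 read 95, 74, 91 and 42 in control muscle and 119, 139, 132 and 124 in GR_KO muscle. All 4 GR_KO signals lay above the highest control, and they were closer together, with means of 75.5 ± 24.1 and 128 ± 8.81 (SD, n = 4 per group). The log2 fold change was 0.83 ± 0.24 (SE, 95% interval 0.30 to 1.37), which is 1.78-fold higher as a difference of mean log2 signals. It did not pass in limma (unadjusted p = 0.00546, adjusted p = 0.850), and it was 0.57 without control replicate 4. Aldh4a1 was the only one of the 10 genes whose groups did not overlap in the gene test, where 1.28% of all genes tested had all GR_KO signals above the controls and 1.29% all below.

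Prodh read 88, 66, 50 and 110 in control muscle and 40, 52, 57 and 44 in GR_KO muscle. Control replicate 3 lay among the GR_KO arrays and the other controls above them, and control replicate 4 was the highest. The means were 78.5 ± 26.1 and 48.2 ± 7.68 (SD, n = 4 per group), and the log2 fold change was -0.65 ± 0.25 (SE, 95% interval -1.21 to -0.10, unadjusted p = 0.0250, adjusted p = 0.880). It was -0.47 without control replicate 4 and -0.85 without control replicate 3. An exact permutation test of single probe sets over all 70 arrangements of 4 against 4, two-sided, gave a p of 0.0857 for Prodh. It gave the smallest p it can give, 0.0286, for Aldh4a1 and for Gpt2 1455007_s_at and 1434542_at. Groups of 4 that do not overlap always give this p, so it adds nothing to their separation. These p-values were not adjusted.

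The first step of branched-chain breakdown is taken by Bcat2, the mitochondrial aminotransferase. It read 69, 67, 72 and 49 in control and 41, 52, 69 and 64 in GR_KO muscle, which overlap. Its log2 fold change was -0.20 ± 0.22 (SE, 95% interval -0.68 to 0.28, adjusted p = 0.885 in limma). It was -0.05 without GR_KO replicate 1, the lowest array, and -0.32 without control replicate 4.

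The next step is that of the branched-chain keto acid dehydrogenase complex, whose decarboxylase is built from the subunits Bckdha and Bckdhb and whose core acyltransferase is Dbt. Bckdha read 724, 842, 688 and 520 against 538, 884, 849 and 944. The 3 highest signals were on GR_KO arrays, but GR_KO replicate 1 was near the lowest control, and the log2 fold change was 0.20 ± 0.20 (SE, 95% interval -0.25 to 0.65, adjusted p = 0.881). It ranged from 0.07 without control replicate 4 to 0.38 without GR_KO replicate 1.

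Bckdhb read 214, 212, 264 and 197 in control and 210, 258, 194 and 220 in GR_KO muscle, nearly the same range. Its log2 fold change was -0.01 ± 0.15 (SE, 95% interval -0.33 to 0.32, adjusted p = 0.994), and its sign turned under median centring and quantile normalization. Dbt read 61, 61, 64 and 190 in control muscle and 113, 109, 80 and 112 in GR_KO muscle. Control replicate 4 alone put the groups in overlap, since the other controls lay below all GR_KO arrays. The difference for Dbt was 0.32 ± 0.34 on the log2 scale (SE, 95% interval -0.42 to 1.06, adjusted p = 0.881), and without control replicate 4 it was 0.73.

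**Figure D4:**
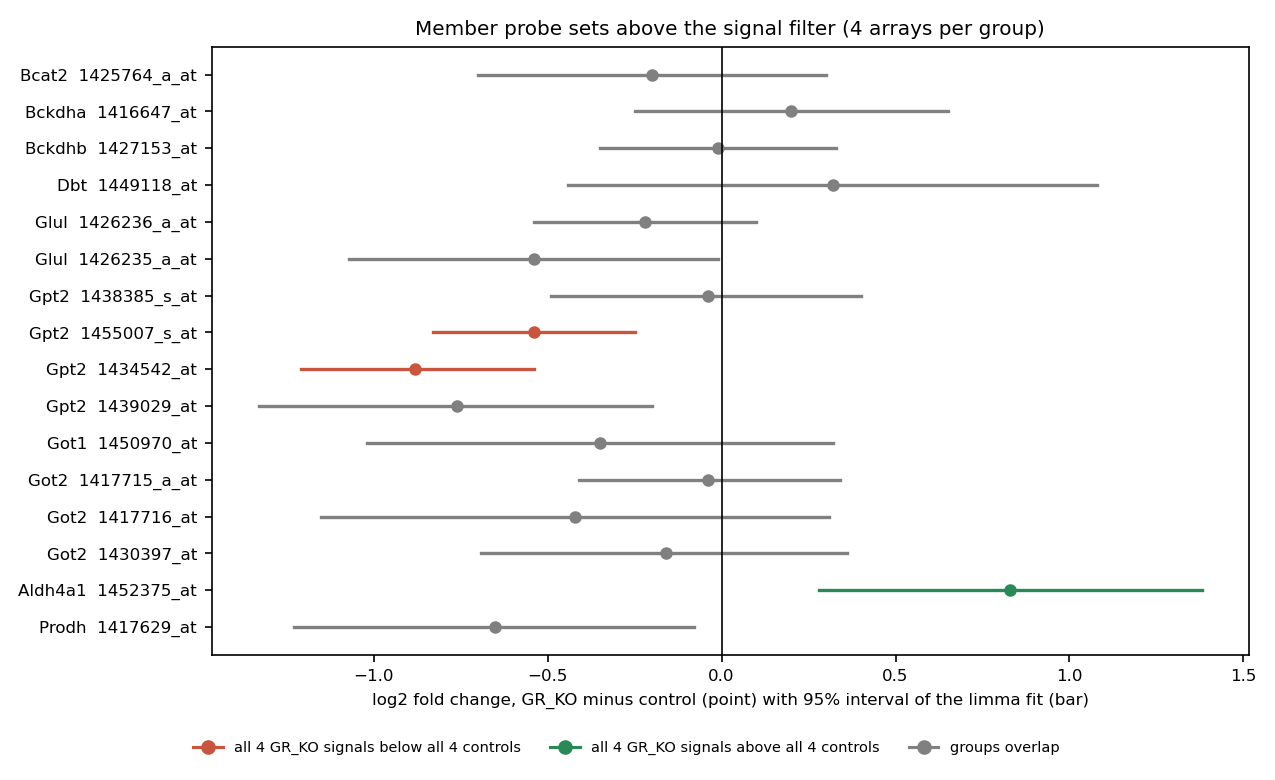
Log2 fold change, GR_KO minus control, of the 16 member probe sets above the filter (points) with the 95% interval of the limma fit over all probe sets (bars), coloured where the 4 GR_KO signals lie wholly below (red) or above (green) the 4 controls. The intervals of 3 Gpt2 probe sets, Prodh and Glul 1426235_a_at lie below 0 and that of Aldh4a1 above it, and none of these passed after adjustment over all probe sets.

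The stretches before the gene start are shown for 3 members. Gpt2 and Glul each had a probe set lower in GR_KO muscle at an unadjusted p under 0.05 in limma, Glul at 1426235_a_at alone. Aldh4a1 was the member with the highest log2 fold change among those tested. Prodh also had a probe set lower at that p, and its stretch is not shown. The sequences are from RefSeq on GRCm38.p6, on the plus strand and written 5′ to 3′, at chr8:85492326-85492575 for Gpt2, chr1:153899679-153899928 for Glul and chr4:139622644-139622870 for Aldh4a1. Capitals mark the box CCACCC, bound by factors of the KLF family, or its reverse complement.
Gpt2: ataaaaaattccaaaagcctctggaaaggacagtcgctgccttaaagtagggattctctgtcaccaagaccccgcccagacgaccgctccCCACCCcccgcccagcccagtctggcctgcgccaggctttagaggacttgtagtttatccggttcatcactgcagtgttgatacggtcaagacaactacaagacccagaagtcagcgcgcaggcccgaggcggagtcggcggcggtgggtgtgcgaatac
Glul: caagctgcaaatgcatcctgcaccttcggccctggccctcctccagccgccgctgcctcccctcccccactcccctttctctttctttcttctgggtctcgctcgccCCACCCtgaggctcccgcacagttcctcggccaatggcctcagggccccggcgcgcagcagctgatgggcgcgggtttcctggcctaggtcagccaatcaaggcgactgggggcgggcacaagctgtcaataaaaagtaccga
Aldh4a1: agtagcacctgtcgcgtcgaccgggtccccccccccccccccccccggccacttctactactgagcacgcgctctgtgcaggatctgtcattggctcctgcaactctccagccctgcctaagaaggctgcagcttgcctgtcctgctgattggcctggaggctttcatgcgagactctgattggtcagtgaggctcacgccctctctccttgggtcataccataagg
Gpt2 held CCACCC 160 bases and Glul 143 bases before the gene start, and the printed stretch of Aldh4a1 held none. That stretch has 227 bases, since it ends at the gene's annotated start, while the searches below took the first 250 bases of each entry of the promoter table. Entries were found for 9 of the 10 genes, which gave 11 windows. The box was on either strand in 5 of the 11, in the genes Bckdhb, Glul, Got1, Gpt2 and Prodh. Of all 32851 windows of that length, 28.1% had it. The hexamer AGAACA, bound by a subunit of the glucocorticoid receptor, was found in 1 of the 11, a window of Bckdhb, and in 16.1% of all windows. The full response element, AGAACA and its reverse complement with 3 bases between them, was found in no member and in 0.00913% of all windows. These are matches of letters in a short window and say nothing of binding.

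Other genes of these pathways gave 0 calls in limma in 4 lists, where 0.0542% of all genes tested passed. At an unadjusted p under 0.05 there were 0 of 22 genes in the first list and 0 of 21 in the second. The third had 1 of 7 and the fourth 3 of 18, where 2.26% of all genes tested were lower and 2.37% higher. Of 22 further genes of branched-chain breakdown that were tested, 14 were below 0 and 8 above in log2 fold change, with a median of -0.02. Those with the smallest p were Ppm1k, the phosphatase that activates the dehydrogenase complex (log2 fold change 0.36), Acadsb, which oxidises the acyl group from isoleucine (-0.54), Mmut, methylmalonyl-CoA mutase (0.30), and Oxct1, which activates ketone bodies (0.37). Of 21 further genes of glutamine, glutamate, alanine and aspartate metabolism, 9 were below 0 and 12 above, with a median of 0.08. Here Gfpt1, which uses glutamine to make hexosamines, had a log2 fold change of 0.37, the malate dehydrogenase Mdh1 -0.31, Aldh5a1 -0.46 and Ampd1, the AMP deaminase of muscle, 0.22. All 8 of these genes had an adjusted p of 0.880. The other probe sets above the filter gave 0.31 for Ppm1k, -0.04 for Mmut, -0.17 to 0.60 for Oxct1 and 0.02 to 0.15 for Mdh1.

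Of 7 further genes of proline and ornithine metabolism, 3 were below 0 and 4 above, with a median of 0.03. Oat, which turns ornithine into the same pyrroline-carboxylate that Prodh makes, read 1157, 1025, 1212 and 1071 in control and 703, 535, 548 and 666 in GR_KO muscle. The groups do not overlap, and its log2 fold change of -0.87 ± 0.14 (SE) had an adjusted p of 0.0777. Aldh18a1, which makes pyrroline-carboxylate from glutamate, had 0.47, Hoga1 -0.27 and the proline hydroxylase subunit P4ha2 -0.15 (adjusted p = 0.880, 0.881 and 0.903). The other Aldh18a1 probe sets above the filter gave 0.00 to 0.50. Of 18 tested genes for the breakdown of other amino acids, 7 were below 0 and 11 above, with a median of 0.05, and Uroc1 (1.56), Gamt, which makes creatine (0.81), Mpst (0.84) and Gcsh (0.13) had the smallest p (adjusted p from 0.850 for Uroc1 to 0.881 for Gcsh). Uroc1 was dim, at 6 to 27 in control and 21 to 58 in GR_KO muscle, and passed the filter only through the GR_KO arrays, since its control mean of 14.8 lay below it. Its other probe set, also dim, gave 0.01.

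Among 13 regulators linked to these enzymes, 8 were below 0 and 5 above, with a median of -0.06, and 1 passed. That gene, Fkbp5, a co-chaperone of steroid receptors and a classic glucocorticoid target, read 345, 225, 375 and 242 in control and 84, 76, 57 and 88 in GR_KO muscle (log2 fold change -1.95 ± 0.21 SE, adjusted p = 0.0132). The call ended, at adjusted p up to 0.31, under 7 of 20 alternatives: with no filter on dim probe sets, with the replicate block, with the mean of its probe sets, and when control 1, control 3, GR_KO 2 or GR_KO 4 was left out. Fkbp5 had been put on the list with its result on these arrays known. Its other probe set above the filter, 1448231_at, gave -2.16 ± 0.67 (SE, adjusted p = 0.963 in limma). The signals there were 55 to 97 in control and 3 to 45 in GR_KO muscle. Another well-known glucocorticoid target of the list, Tsc22d3, had a log2 fold change of 0.24 ± 0.13 (SE, adjusted p = 0.880), and it is named here after its value was seen. Klf15 read 294, 204, 222 and 267 against 199, 203, 154 and 160. The GR_KO signals lay below all controls, by 1 unit at the nearest pair, and the log2 fold change was -0.46 ± 0.17 (SE, adjusted p = 0.880). Foxo4 had -0.32 ± 0.17 (SE, adjusted p = 0.880).

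**Figure D5:**
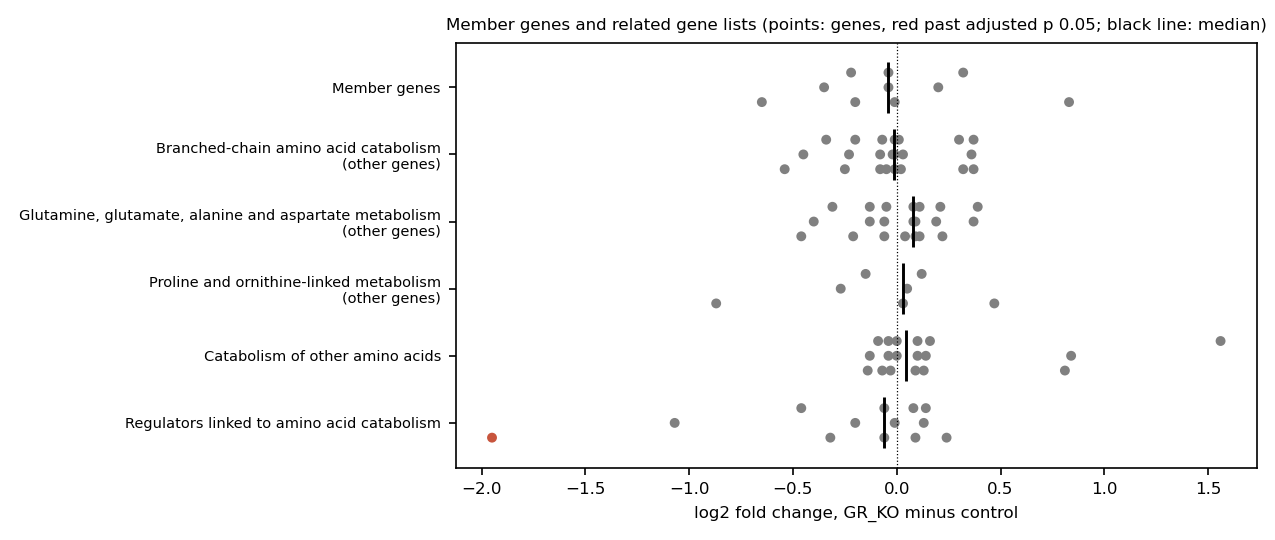
Log2 fold change, GR_KO minus control, of each tested gene (points) in the group of 10 genes and in 5 related lists, with the list median as a black line and genes past an adjusted p of 0.05 in red. Fkbp5, at -1.95, is the only red point, and the medians lie between -0.06 and 0.08.

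Markers of other cell types also differed in level between the arrays. The summed signal of 14 endothelial markers was 4958 to 6110 on control and 6521 to 8802 on GR_KO arrays, which do not overlap, with 13 of 14 log2 fold changes above 0. That of 13 fibroblast and matrix markers was 9072 to 19382 against 16530 to 24443, with 11 of 13 above 0, and that of 8 slow-fibre genes was 7233 to 24414 against 14895 to 17977, with 7 of 8 above 0. None of the markers in these 3 lists was at 0 on any array, and control replicate 4 had the lowest sum in each. Of the Schwann cell genes 6 of 6 were above 0, and of the macrophage genes 3 of 10. No marker of any list passed in limma, while 5 endothelial, 3 fibroblast and matrix and 1 adipocyte gene had an unadjusted p under 0.05, as did 512 of all 11062 genes tested. Of the adipocyte genes 3 of 4 were below 0. So were 13 of 16 muscle fibre genes, whose sum was highest, at 312023, on control replicate 4. Their part in the differences of Gpt2, Aldh4a1 and Prodh was not tested. In whole muscle a changed share of a cell type and a changed amount of RNA per cell cannot be told apart, in either direction.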

How the data were processed

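Total RNA of 4 control and 4 GR_KO gastrocnemius samples was biotin-labelled and hybridised to Affymetrix arrays, per the labels' protocols. The authors deposited linear MAS5 signal intensities, per the submitters' processing notes, as whole numbers. The MAS5 version and scaling target: not given in the sources used here. The number of arrays limits the precision.

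Control probe sets (64) were left out. Of the other 45037, 34945 had 1 gene symbol, 932 several and 9160 none. Of those with 1 symbol, 34741 took their name by gene identifier from RefSeq, whether or not it changed. The log2 signal was used without a pseudocount, and 0 was set to the array's smallest positive value (1 value among those tested). The brightest probe set stood for each of 18193 genes, and 11062 genes were above the median signal. GR_KO was compared with control by limma 3.58.1 (lmFit, then eBayes with a trend; R 4.3.3; two-sided; group as the only term), with Benjamini-Hochberg adjustment over all genes, or over all 22518 probe sets above the filter, at 0.05. Values for a gene's brightest probe set are from the gene fit and those of others from the probe set fit. Plotted intervals, and each SE and adjusted p given with the beta-actin covariate, are all from the probe set fit. The fit was also run on simulated data. That noise was independent between genes, with no differences between whole arrays, so the run does not vouch for the results here. Python 3.11.15 made the figures.

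The members, gene lists and tests were chosen with earlier results of these data known. Named genes were the members, Nr3c1, Klf15, Fkbp5, and up to 4 genes of each list with the smallest p. Alternatives were other normalizations, pseudocounts, filters, probe set averages, variance models, array weights, a replicate block, each array left out, and the added beta-actin covariate.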

Additional observations from a re-analysis of the deposited data

Results flagged for a closer look

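In 5 of 84 groups of 4 arrays examined on the log2 scale, 1 array lay far from the other 3 relative to the group's range (Dixon's 95% criterion), and chance alone gives about 1 such group in 20. Dbt had a signal of 190 on control replicate 4, against 61 to 64 on the other controls, and of 80 on GR_KO replicate 3, against 109 to 113 on the other GR_KO arrays. Gpt2 1439029_at had a signal of 194 on GR_KO replicate 4, against 106 to 111. On the same array Mdh1 had 2545, against 1596 to 1710. The dim Got2 probe set 1447768_at had a signal of 1 on GR_KO replicate 2, against 7 to 10.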

How the results depend on the processing

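No member gene passed under the 20 alternatives and no member probe set under the 19 that apply to probe sets. The smallest adjusted p was 0.32 for a gene, Aldh4a1, and 0.148 for a probe set, Gpt2 1434542_at, whose log2 fold change lay between -0.96 and -0.82 with single arrays left out and between -0.88 and -0.83 otherwise. The count of lower genes over all genes, 6, was 0 with no filter, 2 without a trend, 10 with array weights, 1 with the mean of a gene's probe sets, and 0 to 5 with single arrays left out (0 when the array left out was control 1, control 3, GR_KO 2 or GR_KO 4). That of lower probe sets, 5, was 3 with quantile normalization, 0 with no filter, 1 without a trend, 10 with array weights, 2 with the beta-actin covariate, and 0 to 5 with single arrays left out (0 when it was control 1, control 3, or GR_KO 2, 3 or 4). With the replicate block the counts were 1 gene and 0 probe sets, and the block changed no call of a member. Same-numbered samples deviated from their group means with correlations of -0.19, 0.18, 0.11 and -0.39. Differences between whole arrays enter these values, so they cannot settle whether the numbers pair the samples. The sign of Bckdhb turned to 0.024 under quantile normalization and median centring and to 0.034 with the covariate, and that of Got2 to 0.027 with the covariate and to 0.094 with the mean of its probe sets. With single arrays left out Bckdhb ranged from -0.086 to 0.080, Got2 from -0.14 to 0.11 and Gpt2, at its brightest probe set, from -0.20 to 0.090. List medians moved by more than the spread between arrays to -0.12 for branched-chain breakdown and 0.067 for regulators with the mean of a gene's probe sets. The members' median was 0.011 with the covariate. With single arrays left out the medians were -0.0382 to 0.0814 for glutamine, glutamate, alanine and aspartate metabolism and -0.117 to -0.0077 for regulators. The cause of these changes was not tested. No detection calls were used, so how far dim signals such as those of Prodh and Bcat2 lie above background is not known.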
